A study of Mus musculus with 6 samples.

Results

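The condensin and cohesin subunits described here are 10 genes taken by name from the 30315 genes listed in an RNA-Seq table of mouse primary renal tubular epithelial cells (TECs). Condensin was represented by Smc2, Smc4, Ncapd2, Ncapd3, Ncapg and Ncaph, and cohesin by Smc1a, Smc3, Rad21 and Stag1. The cells came from kidneys of C57BL/6 mice and were studied in culture as 6 libraries. In 3 libraries the cells had received siSox9, a small interfering RNA against the transcription factor Sox9, and in the other 3 a control siRNA, siNC. Both groups were transfected 12 h before hypoxia/reoxygenation (H/R), a culture model of ischemia-reperfusion injury in which cells spent 6 h at 1.0% O2 without glucose and then 18 h in complete medium with normal oxygen. All 6 libraries therefore carry an siRNA and the injury, and no uninjured library is compared here. The question is how the transcripts of the complexes that fold and hold chromosomes differed when Sox9 was reduced in injured TECs, and whether condensin and cohesin differed alike.

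Condensin and cohesin are rings built on a pair of SMC ATPases that are closed by a kleisin subunit and bound by HEAT-repeat subunits. Condensin compacts chromosomes for mitosis. Condensin I and condensin II share the ATPases Smc2 and Smc4 and differ in their kleisin and HEAT-repeat subunits. Cohesin holds sister chromatids together from S phase to anaphase, but it also shapes chromatin loops in cells that do not divide.

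Sox9 itself stood at 8.93, 8.61 and 9.07 FPKM (fragments per kilobase of exon, scaled to the size of the library) in the siSox9 libraries and at 25.7, 26.5 and 25.6 FPKM in the siNC libraries, so that 34.2% of the siNC mean was left (log2 change -1.45, SE 0.03, limma adjusted p = 7.03e-06). The libraries held between 23893195 and 25725732 reads, as recovered from the FPKM values. The epithelial genes Krt8, Krt18, Cdh1 and Epcam were abundant. The nephron segment markers Slc34a1, Aqp1, Slc12a1, Umod, Slc12a3 and Aqp2 had between 0 and 26 reads in any library. Lrp2, another tubular marker, had 854 to 1096 reads per library. Of the 12009 genes that averaged 1 FPKM or more, 2118 were lower and 1532 higher with siSox9 at an adjusted p under 0.05 in limma, and after centring each library on its median 1765 were lower and 1959 higher. The labels do not say whether the libraries of a group came from separate cultures or mice, so the p-values measure the spread between these libraries, which may be technical.

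Transcripts of 9 of the 10 subunits were lower with siSox9, against a background of 17.6% of all tested genes that were lower and 12.8% that were higher (30.4% in either direction). All 6 condensin subunits fell, with a median log2 change of -0.54, and 3 of the 4 cohesin subunits fell, with a median of -0.20 over the 4. The ranges met, since the cohesin subunit Smc1a (-0.34) fell further than the condensin subunit Ncapd3 (-0.26). The median over all tested genes was -0.01. The exception was the cohesin kleisin Rad21, at 99.8% of its siNC mean. For the same 9 subunits every siSox9 library lay below every siNC library, which 26.1% of all tested genes also did. All 10 subunits passed the filter of 1 FPKM, none of them through one group alone. In RNA from whole cultures, fewer dividing cells and less of a transcript in each cell cannot be told apart.

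**Figure D1:**
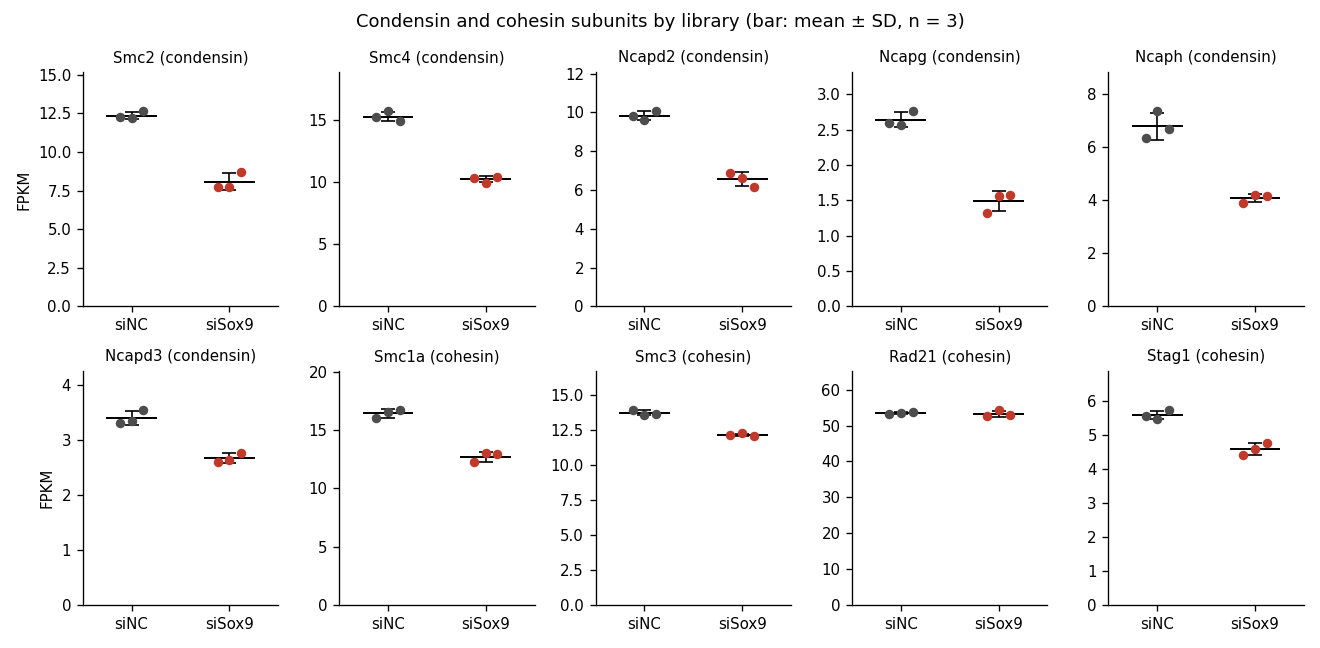
FPKM (vertical axes, from 0) of the 10 subunits in each of the 3 siNC (grey) and 3 siSox9 (red) libraries, with a horizontal bar for the mean and whiskers for the SD. The groups are separate in every panel but that of Rad21, where siSox9 runs from 52.5 to 54.3 and siNC from 53.1 to 53.8.

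The shared condensin ATPases fell by similar amounts. Smc2 (ENSMUSG00000028312, chr4:52439243-52488260, + strand, GRCm38) stood at 7.73, 7.76 and 8.69 FPKM with siSox9 and at 12.3, 12.2 and 12.6 with siNC. The siSox9 values were all below the siNC values, and the highest of them was replicate 3. The mean was 8.06 ± 0.548 against 12.4 ± 0.239 FPKM (SD, n = 3 each), a log2 change of -0.56 (SE 0.05, limma adjusted p = 0.000338), and 213 of the 12009 tested genes had a lower change. These values rest on 1080 to 1138 reads per siSox9 library and 1613 to 1720 per siNC library.

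Smc4, the partner of Smc2 in the ring (ENSMUSG00000034349, chr3:69004738-69034623, + strand), was measured at 10.4, 9.95 and 10.5 FPKM with siSox9 and at 15.3, 15.7 and 14.9 with siNC. The libraries of each group lay close together and apart from the other group. Its log2 change was -0.53 (SE 0.04, limma adjusted p = 0.000128), and 67.0% of the siNC mean was left. The ratio of Smc2 to Smc4 within a library was 0.786 ± 0.0431 with siSox9 and 0.808 ± 0.0355 with siNC (SD, n = 3 each), with overlapping groups and an exact two-sided permutation p of 0.5. Any shift between the ATPases was within the spread of the libraries.

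The 3 subunits found in condensin I but not in condensin II fell as far as the ATPases. Ncaph, the condensin I kleisin (ENSMUSG00000034906, chr2:127103809-127133954, - strand), stood at 3.90, 4.20 and 4.16 FPKM with siSox9 and at 6.34, 7.35 and 6.67 with siNC. The groups were separate although siNC replicate 2 stood above the other siNC libraries. Its log2 change of -0.61 (SE 0.06, limma adjusted p = 0.000438) was the lowest of the 10 subunits on the log2(FPKM + 1) scale, and the mean fell from 6.79 ± 0.512 to 4.08 ± 0.162 FPKM (SD, n = 3 each).

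Ncapg, a HEAT-repeat subunit of condensin I (ENSMUSG00000015880, chr5:45669919-45700546, + strand), had the lowest level of the 10. It was measured at 1.32, 1.57 and 1.57 FPKM with siSox9 and at 2.59, 2.56 and 2.76 with siNC, from 240 to 281 and 437 to 484 reads. Every siSox9 library lay well below every siNC library, and 56.3% of the siNC mean was left, the smallest share among the 10. The log2 change was -0.55 on the log2(FPKM + 1) scale (SE 0.06, limma adjusted p = 0.00105) and -0.83 on recovered reads in limma voom, a scale without the added 1 FPKM that shrinks changes of low genes. Exons of Ncapg share 944 bases (13.4% of its exon length) with Lcorl on the opposite strand, and whether the counting used strand is not given in the sources used here. Lcorl was listed at 1.03 and 1.05 FPKM (log2 change -0.01, limma adjusted p = 0.891).

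Ncapd2, the other HEAT-repeat subunit of condensin I (ENSMUSG00000038252, chr6:125168007-125191701, - strand), stood at 6.90, 6.63 and 6.16 FPKM with siSox9 and at 9.84, 9.59 and 10.1 with siNC. The groups were apart, with siSox9 replicate 3 the lowest library. The log2 change was -0.52 (SE 0.05, limma adjusted p = 0.000362). Its exons hold the small RNA gene Scarna10 on the same strand, over 237 bases or 3.78% of their length. The 5 subunits of condensin I thus lay between -0.61 and -0.52, with summed levels of 30.1 to 31.0 FPKM in the siSox9 libraries and 46.3 to 47.4 in the siNC libraries.

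Subunits found in condensin II alone were also lower. Ncapd3, a HEAT-repeat subunit (ENSMUSG00000035024, chr9:27030175-27095315, + strand), was measured at 2.60, 2.63 and 2.77 FPKM with siSox9 and at 3.30, 3.35 and 3.54 with siNC. The groups did not overlap, and the gap between them was smaller than for the condensin I subunits. Its log2 change was -0.26 (SE 0.05, limma adjusted p = 0.00662), and 10.9% of all tested genes had a lower change. The remaining condensin II subunits are not among the 10 genes but were fixed as partners. The HEAT-repeat subunit Ncapg2 went from 2.95 ± 0.0445 to 1.97 ± 0.154 FPKM (SD, n = 3 each, log2 change -0.41, limma adjusted p = 0.0021). With 66.8% of the siNC mean left and a change of -0.58 on recovered reads, Ncapg2 was level with the condensin I subunit Ncapd2 (66.8% and -0.58), and its smaller change holds on the log2(FPKM + 1) scale alone. The kleisin Ncaph2 went from 16.9 ± 0.333 to 14.3 ± 0.353 FPKM (SD, n = 3 each, log2 change -0.23, limma adjusted p = 0.0027).

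Condensin I was set against condensin II within each library by pairing the matching subunits, which removes scaling between libraries. The kleisin ratio of Ncaph to Ncaph2 was 0.275, 0.298 and 0.282 with siSox9 and 0.382, 0.432 and 0.387 with siNC, lower in 3 of 3 siSox9 libraries. The ratio of Ncapd2 to Ncapd3 was 2.47 ± 0.219 with siSox9 and 2.89 ± 0.0757 with siNC (SD, n = 3 each), also without overlap. The ratio of Ncapg to Ncapg2 was 0.759 ± 0.118 and 0.894 ± 0.0458 (SD, n = 3 each), with overlapping groups. Exact two-sided permutation tests gave p = 0.1 for the kleisins and for the Ncapd pair, the smallest p that 3 against 3 libraries allow, and p = 0.3 for the Ncapg pair. With Benjamini-Hochberg adjustment over the 7 subunit pairs examined, the values were 0.14, 0.14 and 0.35.

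Among the cohesin subunits the ATPases differed from each other. Smc1a (ENSMUSG00000041133, chrX:152016428-152062694, + strand) stood at 12.2, 13.0 and 13.0 FPKM with siSox9 and at 16.0, 16.6 and 16.7 with siNC. The groups were clearly apart, with a log2 change of -0.34 (SE 0.04, limma adjusted p = 0.000732). Smc3, its partner in the ring (ENSMUSG00000024974, chr19:53600398-53645833, + strand), was at 12.1, 12.2 and 12.1 FPKM with siSox9 and at 13.9, 13.6 and 13.7 with siNC. The groups of Smc3 did not overlap either, but 88.6% of the siNC mean was left and 20.4% of all tested genes had a lower change. Its log2 change was -0.16 (SE 0.03, limma adjusted p = 0.00662), and after scaling each library to the same sum of FPKM it was -0.13 with an adjusted p of 0.109. In that scaling a single gene, Gm23935, made up between 0.266% and 6.35% of a library's sum, and with Gm23935 left out of the sums the change of Smc3 was -0.17 (limma adjusted p = 0.0135).

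The ratio of Smc1a to Smc3 was 1.01, 1.06 and 1.07 in the siSox9 libraries and 1.15, 1.22 and 1.22 in the siNC libraries. The ATPases of cohesin were thus nearly equal in FPKM with siSox9 and Smc1a was ahead with siNC, without overlap of the groups (log2 change of the ratio -0.19, exact two-sided permutation p = 0.1, the smallest possible, adjusted 0.14). The corresponding ratio of the condensin ATPases, given above, did overlap.

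Rad21, the mitotic cohesin kleisin that separase cuts at anaphase (ENSMUSG00000022314, chr15:51962605-51991760, - strand), was the most abundant of the 10 subunits. It was measured at 52.5, 54.3 and 53.1 FPKM with siSox9 and at 53.1, 53.4 and 53.8 with siNC. The siNC libraries lay within the range of the siSox9 libraries. The log2 change was -0.0034 with a 95% interval from -0.07 to 0.06 (limma adjusted p = 0.939, exact two-sided permutation p = 0.8). Its sign depended on the scaling, and the interval leaves room for changes of up to these bounds in either direction, which are smaller than the change of every condensin subunit.

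Stag1 and Stag2 are alternative subunits that bind Rad21 and give cohesin-SA1 and cohesin-SA2. Stag1 (ENSMUSG00000037286, chr9:100597798-100959375, + strand) stood at 4.42, 4.59 and 4.77 FPKM with siSox9 and at 5.58, 5.49 and 5.73 with siNC, with separate groups. Its log2 change was -0.24 (SE 0.04, limma adjusted p = 0.00548). Stag2, a partner rather than a member, was at 12.7, 12.7 and 13.2 FPKM with siSox9 and at 12.7, 13.2 and 12.0 with siNC. The groups of Stag2 overlapped, with a log2 change of 0.02 (95% interval -0.08 to 0.12, limma adjusted p = 0.766) that turned to -0.015 without siNC replicate 3. The ratio of Stag1 to Stag2 was 0.358 ± 0.00747 with siSox9 and 0.443 ± 0.0316 with siNC (SD, n = 3 each), lower in 3 of 3 siSox9 libraries (exact two-sided permutation p = 0.1, adjusted 0.14).

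**Figure D2:**
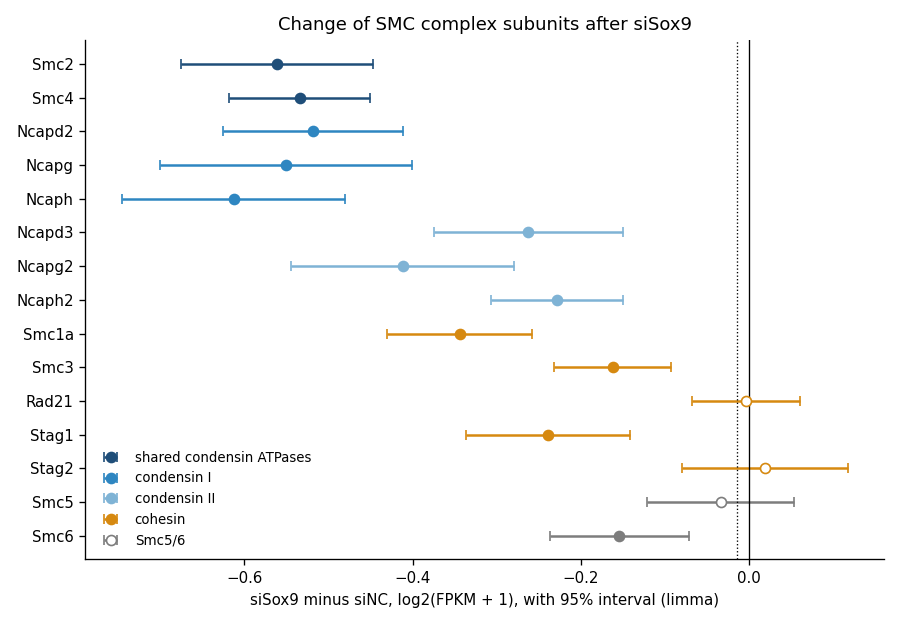
Change of each subunit with siSox9 against siNC on the log2(FPKM + 1) scale (horizontal axis), with limma's 95% interval, for the 10 members and for Ncapg2, Ncaph2, Stag2, Smc5 and Smc6. Filled points are past the threshold and open points are not, the solid line is 0 and the dotted line the median of all tested genes (-0.01). The condensin ATPases Smc2 and Smc4 and the condensin I subunits lie from -0.61 to -0.52, and Rad21, Stag2 and Smc5 straddle 0.

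Condensin was then set against cohesin within each library. The ratio of the kleisins, Ncaph to Rad21, was 0.0742, 0.0773 and 0.0784 with siSox9 and 0.119, 0.138 and 0.124 with siNC. The siSox9 libraries were lower without overlap, by -0.73 on the log2 scale, with an exact two-sided permutation p of 0.1, the smallest that 3 against 3 libraries allow (0.14 after adjustment over the 7 pairs). This ratio was the comparison chosen for condensin against cohesin, and the other 6 pairs were added after the values were seen. It sets the subunit with the lowest log2 change (Ncaph, -0.61) against the only subunit not called lower (Rad21, -0.0034). On the log2(FPKM + 1) scale this is the widest contrast between a condensin and a cohesin subunit. The summed ATPases gave the same direction but a smaller shift, by -0.32 on the log2 scale. Smc2 plus Smc4 stood at 0.742, 0.701 and 0.765 of Smc1a plus Smc3 in the siSox9 libraries and at 0.920, 0.925 and 0.907 in the siNC libraries. FPKM is scaled by exon length, so the size of a ratio also depends on the length used for each gene. The exact permutation test cannot reach 0.05 for a single ratio with 3 against 3 libraries.

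**Figure D3:**
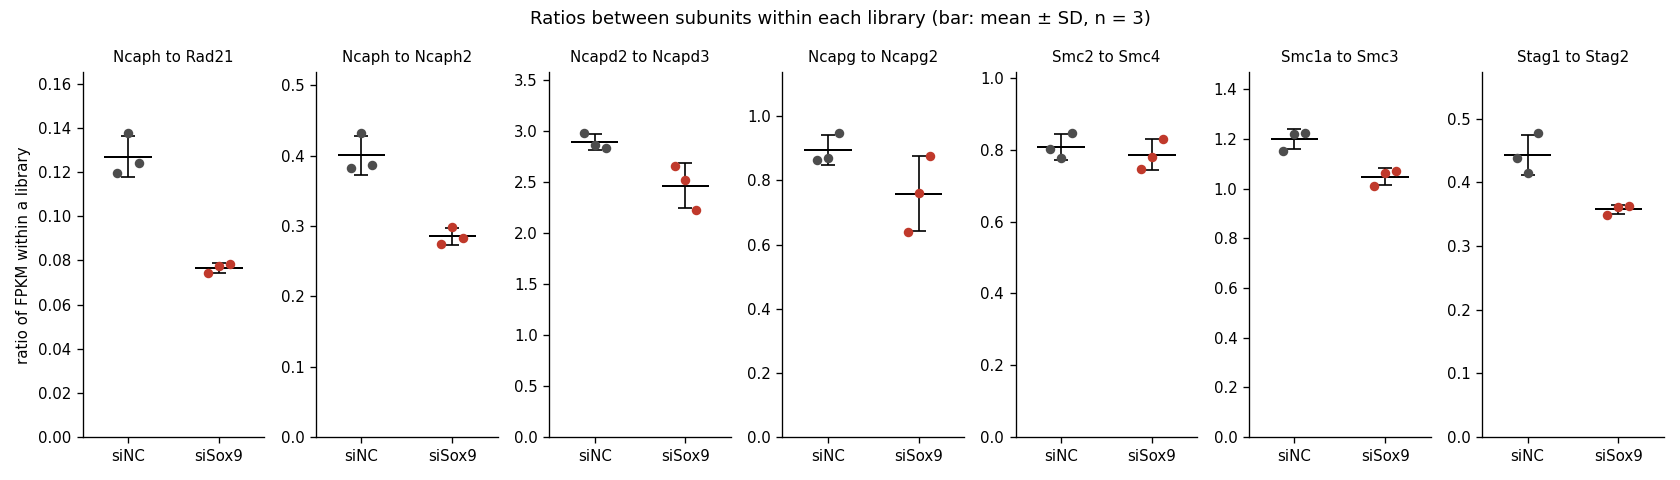
Ratio of FPKM between 7 pairs of subunits within each library (vertical axes, from 0), with points for the 3 siNC and 3 siSox9 libraries, a bar for the mean and whiskers for the SD. The ratios of Ncaph to Rad21, Ncaph to Ncaph2, Ncapd2 to Ncapd3, Smc1a to Smc3 and Stag1 to Stag2 are separate between the groups, and those of Ncapg to Ncapg2 and Smc2 to Smc4 overlap.

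The order of the subunits by level also differed between the groups. With siNC it ran, in mean FPKM, from Rad21 (53.4) through Smc1a (16.4), Smc4 (15.3), Smc3 (13.7), Smc2 (12.4), Ncapd2 (9.83), Ncaph (6.79), Stag1 (5.60) and Ncapd3 (3.40) to Ncapg (2.64), and no neighbours in this order overlapped over the 3 libraries. With siSox9, Smc3 (12.2) stood above Smc4 (10.3) and Stag1 (4.59) above Ncaph (4.08), both without overlap. The siSox9 order was not free of overlap throughout. Its neighbours Smc1a and Smc3 met, with the lowest Smc1a library at 12.243 and the highest Smc3 library at 12.245 FPKM. Both exchanges placed a cohesin subunit above a condensin subunit that had been ahead of it.

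**Figure D4:**
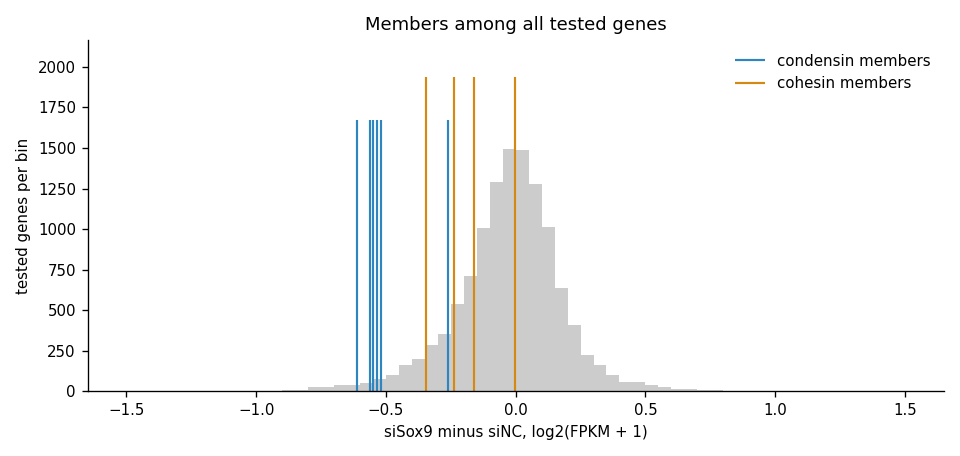
Histogram of the change with siSox9 on the log2(FPKM + 1) scale over the 12009 tested genes (grey, number of genes per bin), with vertical lines for the 6 condensin (blue) and 4 cohesin (orange) subunits, whose heights carry no value. Of the blue lines, 5 stand in the lower tail between -0.61 and -0.52, and the orange lines spread from -0.34 to about 0.

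The promoters of the subunits were searched for words known from cell cycle genes. RefSeq promoters (GRCm38.p6, 250 bases before to 50 after the start) were matched for 8 of the 10 genes, all but Smc4 and Rad21. The searched words were the cell cycle homology region TTTGAA (CHR), which recruits the MuvB complexes that time mitotic genes, and the word CCAAT, which NF-Y binds. For E2F factors the word TTCCCGC was searched along with the variant spelled TTCGCGC in full, the further variant spelled TTGCCGC in full, and the last variant spelled TTGGCGC in full. Both strands were searched for each word. The 3 condensin promoters that hold a CHR are printed with the promoter of Smc3, which holds none of the words, and capitals mark every match. Smc2 is chr4:52438971-52439270 (+), Ncapd2 chr6:125191537-125191836 (-), Ncapg chr5:45669675-45669974 (+) and Smc3 chr19:53600146-53600445 (+), each written 5′ to 3′ on the strand of the gene.
Smc2: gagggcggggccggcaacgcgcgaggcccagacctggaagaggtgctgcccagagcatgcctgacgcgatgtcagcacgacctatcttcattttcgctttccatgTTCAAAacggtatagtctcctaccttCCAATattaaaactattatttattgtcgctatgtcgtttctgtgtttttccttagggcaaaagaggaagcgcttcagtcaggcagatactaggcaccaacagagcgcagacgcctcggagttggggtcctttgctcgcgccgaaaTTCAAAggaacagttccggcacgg
Ncapd2: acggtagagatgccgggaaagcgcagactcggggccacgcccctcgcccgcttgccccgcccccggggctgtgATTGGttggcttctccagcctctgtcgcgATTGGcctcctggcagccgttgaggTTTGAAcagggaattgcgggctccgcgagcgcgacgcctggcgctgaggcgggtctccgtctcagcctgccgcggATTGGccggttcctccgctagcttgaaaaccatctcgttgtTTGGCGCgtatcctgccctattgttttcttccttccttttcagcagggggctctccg
Ncapg: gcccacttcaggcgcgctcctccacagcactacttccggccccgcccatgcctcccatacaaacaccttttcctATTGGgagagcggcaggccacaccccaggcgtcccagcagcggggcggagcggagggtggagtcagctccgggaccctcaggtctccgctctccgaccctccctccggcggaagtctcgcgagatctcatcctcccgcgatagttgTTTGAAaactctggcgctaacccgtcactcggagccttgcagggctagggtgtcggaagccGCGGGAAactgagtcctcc
Smc3: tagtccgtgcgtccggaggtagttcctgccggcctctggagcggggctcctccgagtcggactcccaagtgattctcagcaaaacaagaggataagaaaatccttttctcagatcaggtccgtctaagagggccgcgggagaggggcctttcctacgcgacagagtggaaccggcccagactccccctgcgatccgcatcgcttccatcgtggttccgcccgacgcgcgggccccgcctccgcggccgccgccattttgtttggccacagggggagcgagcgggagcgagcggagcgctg

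A CHR stood in 3 of the 5 condensin promoters matched and in 0 of the 3 cohesin promoters, against 17.9% of all 32817 promoters in the table. In Ncapg it begins 30 bases before the start, in Ncapd2 123 bases before, and in Smc2 145 bases before and 27 after, both times as the complement on the printed strand. CCAAT stood in 3 of the 5 condensin and 2 of the 3 cohesin promoters (37.4% of all promoters), and an E2F word in 4 of the 5 and 2 of the 3 (9.57% of all). Ncaph, the subunit with the lowest log2 change, holds an E2F word 42 bases after the start and no CHR in this window. For Stag1 the whole RefSeq window (chr9:100643198-100643497) lies inside the gene as listed, which begins at 100597798. All cohesin counts include this window, that of 0 of 3 for the CHR as well as those of CCAAT and E2F words. For Ncapd2 the start used also lies inside the gene as listed, whose 5′ end (125191701) falls within the window. Matches of letters are a description and do not show that a factor binds there.

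The partners and regulators of both complexes comprised 41 listed genes, of which 36 passed the filter. Of these 20 were lower and 1 was higher, with a median log2 change of -0.16, against 17.6% lower, 12.8% higher and a median of -0.01 over all tested genes. Esco2 and Eid3 passed the filter only through the group in which they are higher, so their calls and these counts support nothing further. Of the 11 tested genes for cohesin loading, release and acetylation, 5 were lower, beside the same 17.6% of all genes, and 6 did not pass the threshold (median -0.10). The loader subunit Nipbl was at 15.1 ± 0.307 FPKM with siNC and 14.7 ± 0.550 with siSox9 (SD, n = 3 each, log2 change -0.04, limma adjusted p = 0.503). The releasing factor Wapl was at 19.3 ± 0.371 and 20.2 ± 0.0510 FPKM (SD, n = 3 each, log2 change 0.06, limma adjusted p = 0.149), with siSox9 above siNC in every library, as for 20.2% of all tested genes.

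The 5 lower genes of this group were Esco2, Cdca5, Ddx11, Chtf18 and Pds5b. Esco2, the acetyltransferase that locks cohesin onto sister chromatids, had the largest fall, from 1.34, 1.48 and 1.54 FPKM with siNC to 0.830, 0.906 and 0.844 with siSox9 (log2 change -0.40, limma adjusted p = 0.00517). Its siSox9 mean of 0.860 FPKM is below the filter, which it passed through the siNC libraries. Cdca5 (sororin), which protects acetylated cohesin from Wapl, went from 5.24 ± 0.156 to 3.85 ± 0.240 FPKM (SD, n = 3 each, log2 change -0.36, limma adjusted p = 0.00213). The helicase Ddx11 changed by -0.31, the clamp loader subunit Chtf18 by -0.27 and Pds5b by -0.17, while Esco1, the acetyltransferase that works throughout the cell cycle, was at -0.06 (limma adjusted p = 0.373). Mau2, Pds5a and Hdac8 did not pass the threshold, and Dscc1 was under the filter. The difference between Esco2 and Esco1 was not tested.

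Of the genes that guard or cut cohesin, Sgo1 (shugoshin) was lower by -0.53 (limma adjusted p = 0.00399) and the protease separase, Espl1, by -0.53 (limma adjusted p = 0.000969). Securin, Pttg1, stood at -0.11 (limma adjusted p = 0.246) with overlapping groups, and Sgo2a was under the filter. Separase was measured at 1.88, 1.85 and 1.68 FPKM with siSox9 and 2.99, 2.87 and 3.26 with siNC. The groups of separase did not overlap, unlike those of its substrate Rad21.

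Among the SMC proteins outside both complexes, Smc6 was lower by -0.15 (limma adjusted p = 0.0158), Smc5, its partner in the ring, was at -0.03 (limma adjusted p = 0.529), and Smchd1, an SMC-like protein of the inactive X chromosome, had the largest fall of the group (-0.16, limma adjusted p = 0.0192). The one partner that rose was Eid3, a kleisin-like subunit of the Smc5/6 complex best known from testis. It was at 1.37, 1.90 and 1.57 FPKM with siSox9 and at 0.494, 0.984 and 0.740 with siNC, on only 46 to 63 and 16 to 31 reads, with separate groups (log2 change 0.59, SE 0.12, limma adjusted p = 0.0118). Its siNC mean of 0.739 FPKM is below the filter, which it passed through the siSox9 libraries. Of the other cohesin subunits, the germline genes Stag3, Smc1b and Rad21l had at most 23 reads in any library, and the meiotic kleisin Rec8 was at 8.53 ± 0.699 FPKM with siNC and 9.55 ± 0.626 with siSox9 (SD, n = 3 each, log2 change 0.15, limma adjusted p = 0.141).

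The groups with the lowest medians were those for chromosome folding (-0.67) and for the chromosomal passenger complex with Plk1 (-0.62). In the group for chromosome folding 4 of 5 were lower, beside 17.6% of all tested genes. Mki67, which coats mitotic chromosomes, went from 12.5 ± 0.501 to 6.90 ± 0.254 FPKM (SD, n = 3 each, log2 change -0.78, limma adjusted p = 8.3e-05). Topoisomerase II alpha, Top2a, was at -0.71 and the chromokinesin Kif4 at -0.67, while Kif4 had the smallest share of its siNC mean left (54.5%, against 55.0% for Mki67). By contrast, Ctcf, which stops cohesin at loop anchors, was at -0.11 (limma adjusted p = 0.0425) and Mcph1, an inhibitor of condensin II, at -0.05 (limma adjusted p = 0.562). All 5 genes of the chromosomal passenger complex with Plk1 were lower, with the largest fall for the kinase Plk1 (-0.82, limma adjusted p = 0.000209) and the smallest for Incenp (-0.49). Aurkb, the kinase that promotes condensin loading, went from 6.19 ± 0.0287 to 3.67 ± 0.241 FPKM (SD, n = 3 each, log2 change -0.62).

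**Figure D5:**
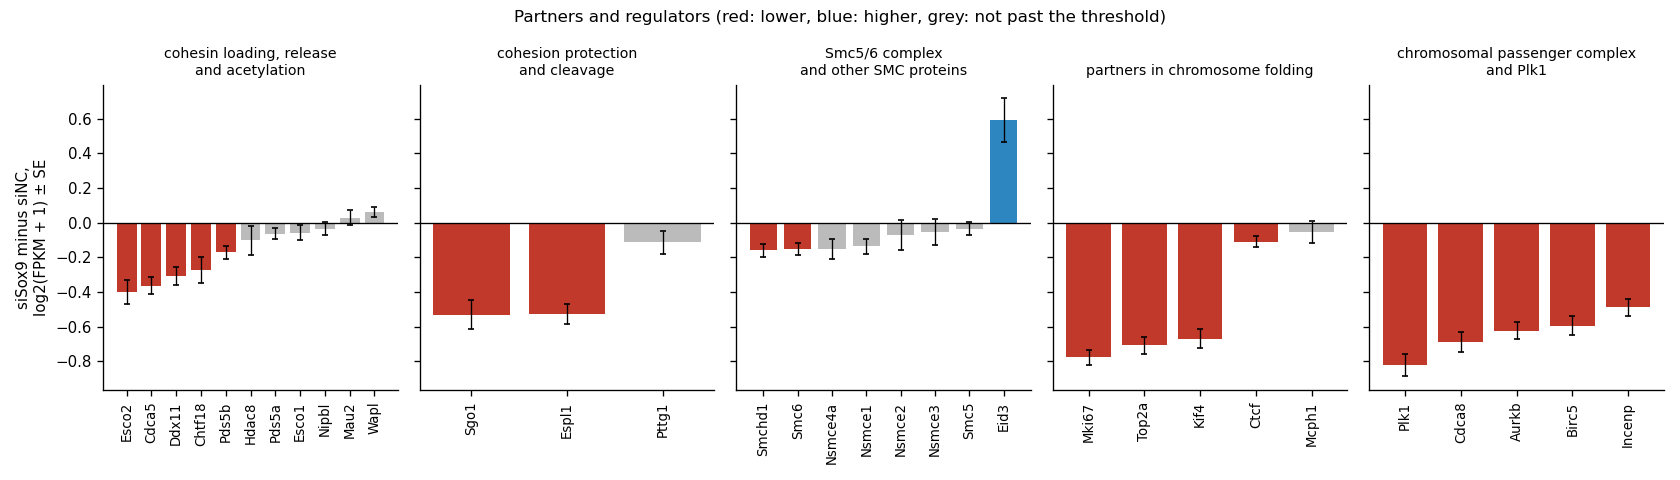
Change with siSox9 against siNC on the log2(FPKM + 1) scale for the tested partners in 5 groups, with bars from 0 and whiskers for limma's SE. Red bars are lower and blue bars higher past the threshold, and grey bars are not past it. All bars of the chromosomal passenger group are red, Nipbl, Mau2 and Wapl are grey, and Eid3 is the only blue bar.

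Genes that mark dividing cells were also lower, beside 17.6% of all tested genes. All 10 of them (Mki67, Top2a, Pcna, Mcm2, Ccna2, Ccnb1, Cdk1, Bub1, Aurka and Plk1) were lower, with a median log2 change of -0.64, and their summed level was 97.6 to 106 FPKM in the siSox9 libraries and 149 to 154 in the siNC libraries. The largest fall was that of Plk1 and the smallest that of Pcna (-0.35), a replication clamp. The part of dividing cells in the change of condensin or cohesin was not tested. Markers of other cells in a kidney culture were also summed. Fibroblast markers came to 6.24 to 7.76 FPKM with siSox9 and 7.72 to 8.79 with siNC, endothelial markers to 2.76 to 2.99 and 3.15 to 4.01, and macrophage markers to 103 to 114 and 92.2 to 98.7. Most of the macrophage sum was Lyz2 (mean 83.4 FPKM with siSox9, 71.9 with siNC), and most of the fibroblast sum Col1a1 (5.79 and 6.78). Of the other macrophage markers, Adgre1 and Cd68 had higher means with siSox9, and Ptprc and Csf1r lower ones. Only 1 of 5 fibroblast, 1 of 4 endothelial and 4 of 5 macrophage markers reached 1 FPKM and were tested, of which Lyz2 passed the threshold (log2 change 0.21). Among the untested, the endothelial gene Emcn was at 61.4% of its siNC mean (78 to 96 reads against 132 to 155), Pecam1 at 84.3% and the fibroblast gene Pdgfrb at 77.4%. All 3 had siSox9 below siNC in every library, as did 26.1% of all tested genes. Podocyte markers were near 0, and among the 8 tubular markers tested Cdh16 was higher (0.36) and the other 7 did not pass. Their part in the results was not tested.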

How the data were processed

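The authors deposited FPKM values for 30315 genes in 6 RNA-Seq libraries (3 siSox9, 3 siNC), not scaled further between libraries. The submitters' processing notes name HISAT2 2.1.0, Bowtie2 2.2.3 and TopHat2 and the build mm9, but 93.3% of the genes found in GENCODE M21 have the position given there, in GRCm38. With its exon lengths, 93.2% to 93.4% of the values per library were whole numbers of reads (within 0.02), which gave the depth of each library. Values of 0 count as whole in this share, and 22352 to 22590 genes per library were above 0.

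Values were tested as log2(FPKM + 1) in limma 3.58.1 (R 4.3.3, moderated test with a trend) over the 12009 genes that averaged 1 FPKM or more, with Benjamini-Hochberg adjustment and a threshold of 0.05. The fitting script was tested on simulated data. Changes on this scale are smaller than those of FPKM for low genes. Ratios within a library were tested by exact permutation in scipy 1.17.1. Members and lists were chosen with earlier results of these data known. The named genes are the 10 subunits, Sox9, in each partner list the largest rise and fall past the threshold, and Nipbl, Wapl, Stag2 and Cdca5. Other genes were named after their values were seen. Alternatives were another pseudocount, no filter or a higher one, other scalings, a replicate block, leaving out each library, and, chosen after seeing the data, limma voom on recovered reads and a scaling without Gm23935.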

Additional observations from a re-analysis of the deposited data

How the results depend on the processing

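Under the alternatives, 132 of 133 repeats for the 9 lower subunits kept their direction and side of the threshold. The exception was Smc3 with each library scaled to the same sum (-0.13, limma adjusted p = 0.109). The change of Rad21, never past the threshold, was 0.025 in that scaling and 0.023 after median-centring, and ran from -0.016 to 0.0067 when each library was left out (0.0067 without siSox9 replicate 1, 0.0010 without siNC replicate 3). Stag2 ran from -0.015 to 0.049 in the same way. At a mean of at least 5 FPKM, 12 of 23 partners tested were lower and 0 higher at the adjusted threshold in limma (Eid3, Ncapg and Ncapd3 were then not tested), and 1376 of all 7495 genes tested were lower. Over all genes, 1342 were lower with the scaling to the same sum, and leaving out each library gave 1480 to 2089 lower and 944 to 1565 higher, with 944 without siSox9 replicate 2. The cause was not tested, apart from the smaller number of genes at the higher minimum. Rad21 was not tested on recovered reads, as its values were not whole reads.

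Libraries with the same number did not deviate together (r = 0.0649, -0.0504 and 0.0078). Each r was taken over the 12009 tested genes, between the deviations of a siSox9 and a siNC library from their group means. Pairs with different numbers ran from -0.0817 to 0.0896. With 3 libraries per group these values cannot show whether those with the same number shared a culture, and the labels do not say. With the replicate block, 9 of the 10 subunits were lower (6 condensin and 3 cohesin), the largest adjusted p among them was 0.0239 for Smc3, and 1889 genes were lower and 1373 higher. The block changed no call of a member. Genes with few reads, such as Eid3 and Ncapg, are measured with more counting error than Rad21 or Smc1a.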

Other observations

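The gene ontology terms in the deposited annotation hold some or all subunits of a complex beside other genes. Of 18 genes listed under mitotic chromosome condensation, 16 were tested, and 8 were lower and 2 higher with siSox9 (median log2 change -0.20). All 6 condensin subunits are among the 8 lower genes, so this count is not separate from theirs. Of 19 genes under sister chromatid cohesion, 17 were tested, and 7 were lower and 1 higher (median -0.10). Smc1a and Smc3 are among these 7 lower genes, but Rad21 and Stag1 are not listed under this term. The term mitotic sister chromatid cohesion holds Rad21 beside Smc1a and Smc3. Of its 14 tested genes, 6 were lower and 1 higher (median -0.09). Over all tested genes 17.6% were lower and 12.8% higher, with a median of -0.01. The terms were chosen with the results for the subunits known and share genes with each other.

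In the table of promoters, 30 of the 41 partners and regulators were matched, of which 14 hold a CHR word, 17 a CCAAT word and 11 an E2F word in the same window of 300 bases. Over all promoters 17.9% hold a CHR word, 37.4% a CCAAT word and 9.57% an E2F word. The partner counts include windows that lie wholly inside the gene as listed, those of Cdca8, Kif4, Nsmce4a, Smc5, Stag3 and Pttg1. Partners with a CHR match that were lower with siSox9 were Top2a, Kif4, Mki67, Cdca8, Plk1, Espl1, Cdca5, Ncapg2, Pds5b, Smc6, Smchd1 and Ctcf. Their log2 changes ran from -0.82 (Plk1) to -0.11 (Ctcf). The others were Hdac8, which did not pass the threshold (log2 change -0.10, limma adjusted p = 0.403), and Rad21l, which was under the filter. Of the matched partners without a CHR, Birc5 (-0.60), Sgo1 (-0.53), Chtf18 (-0.27) and Ncaph2 (-0.23) were lower too. The rest did not pass the threshold or were under the filter. The part of a CHR in these changes was not tested.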
